A study of Arabidopsis thaliana with 24 samples.

Results

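The early transcript response of wild-type Arabidopsis thaliana to the peptide flg22 was measured by comparing 3 arrays of seedlings treated for 30 min with 3 arrays of mock-treated seedlings. All 6 came from wild-type plants of the accession Col, and no mutation or transgene is named for them. The seedlings were 10 days old, were grown at 22 °C with 12 h of light a day, and had been moved to fresh liquid medium 48 h before they received 1 µM flg22 or water. RNA was taken from leaves. The arrays were chosen by their labels (wild type, 30 min, flg22 or mock) and carried set numbers 1 to 3, by which they were paired. They are 6 of the 24 arrays of a study that also treated the insertion line mpk11 and a 3 h time point. All 576 probes of the array are described here, and 181 of them have a gene name.

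The flg22 peptide is the conserved stretch of bacterial flagellin that plants recognise as a sign of infection. It binds the receptor kinase FLS2 at the cell surface, which then joins the co-receptor BAK1. Calcium enters the cell, reactive oxygen is produced at the plasma membrane, and cascades of MAP kinases are switched on. WRKY transcription factors, which bind W-box elements in promoters, are well known early targets of these cascades, while antimicrobial proteins and defence metabolism belong to the output of the pathway.

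Levels are log values as deposited, read here as log2 since no base is stated, and a change is the flg22 value less the mock value of the same set, averaged over 3 sets. The medians of the 3 mock arrays ranged from 3.59 to 3.76 and those of the flg22 arrays from 4.12 to 4.15. These array medians were on average 0.47 higher with flg22, while the median of the changes of single probes was 0.056. A change called here passed limma with a Benjamini-Hochberg adjusted p below 0.05 over all 576 probes. No label says that the sets were separate experiments. The p-values therefore cover only the spread among the 24 arrays of the fit, which may be technical. The number of arrays limits the precision. In leaf RNA, fewer cells of a type and less RNA per cell cannot be told apart. None of the 8 leaf, 6 root and 2 pollen marker genes was among the named probes, so the tissue was not checked against them.

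Rises dominated the response. With flg22, 127 probes were higher (22.0% of 576) and 5 were lower (0.868%). Of the higher probes 84 rose by at least 1 (14.6%), 36 by at least 2, 18 by at least 3 and 5 by at least 4. The remaining 444 probes did not pass, and 437 of them differed by less than 0.5 in either direction. The median change over all probes was 0.056, with a 5th percentile of -0.29 and a 95th of 2.27. The lowest flg22 array lay above the highest mock array for 142 probes (24.7%), and the highest flg22 array lay below the lowest mock array for 19 (3.30%). Among the 84 probes that rose by at least 1, 82 had groups that did not overlap, which the choice by size favours.

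The split between rises and falls depended on the scaling of the arrays. With every array centred on its own median, the median change was -0.42, with 92 higher and 328 lower probes, and quantile normalization gave 99 and 203. Centring on 16 named genes of general cell machinery gave 124 and 2. All 84 probes that rose by at least 1 were also called higher under each of these scalings. Median centring took the same 0.47 off every change, so probes chosen for a large rise were likely to stay called. A rise is therefore relative to the deposited scaling. Counts given below for gene classes under these scalings are to be read beside these counts over all probes.

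**Figure D1:**
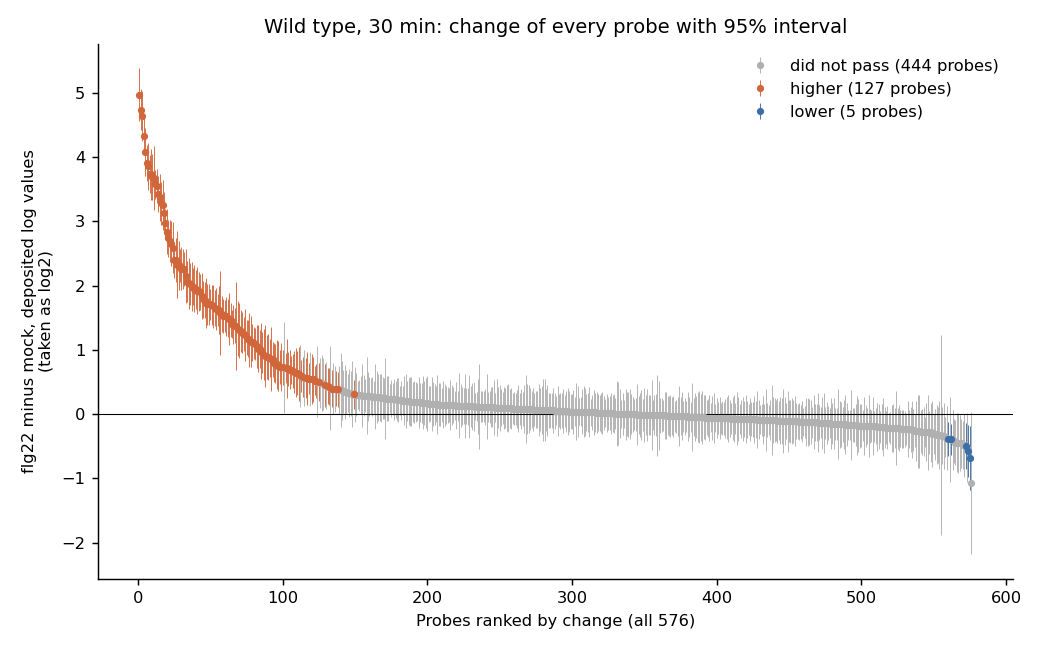
The plot ranks all 576 probes by their change (vertical axis, flg22 minus mock on the log scale taken as log2), with points for the estimates and bars for 95% intervals, coloured by whether the probe passed. The 127 higher probes reach 4.97, while the 5 lower ones lie among many probes of similar size that did not pass.

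Transcription factor genes included the named gene with the largest rise. STZ, also called ZAT10, encodes a zinc-finger repressor linked to stress and defence. Its levels were 2.45, 2.47 and 2.68 in mock and 7.70, 6.91 and 7.17 with flg22, in sets 1 to 3. The groups lay far apart, and the set 1 array was the highest of the treated ones. STZ rose by 4.73 (SE 0.15, limma adjusted p = 2.3e-16).

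All 4 WRKY genes with a named probe rose, beside 22.0% of all probes. They rose under each scaling, except that WRKY29 was lost after median centring (0.31, limma adjusted p = 0.0686). WRKY53, linked to leaf senescence as well as defence, had 2.15, 2.22 and 2.35 in mock and 5.94, 6.03 and 5.95 with flg22. The 3 treated arrays were nearly equal and none came close to a mock array, and the gene rose by 3.74 (SE 0.14). WRKY22 went from 2.90, 3.35 and 3.01 to 5.98, 6.58 and 6.45. Its groups did not overlap, and it rose by 3.25 (SE 0.18). WRKY22 and WRKY29 are the factors placed downstream of the flagellin MAP kinase cascade in early work on this pathway, but they differed in size here. WRKY29 had 3.10, 3.01 and 3.01 in mock and 3.49, 3.95 and 4.03 with flg22. Every treated array exceeded every mock array, set 1 by the least, and WRKY29 rose by 0.78 (SE 0.15, limma adjusted p = 1.7e-04). WRKY6, another senescence-associated factor, went from 2.94, 3.24 and 3.66 to 4.27, 4.71 and 4.30, a rise of 1.15 (SE 0.20) with no overlap.

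The other 4 transcription factor genes did not pass, with changes from -0.19 to 0.08. They were the homeodomain gene PHV of leaf polarity (-0.19), the Dof-type gene AT2G28510 (-0.11), the helix-loop-helix gene AT1G10585 (-0.06) and the GRAS gene SCL21 (0.08). In all, 5 of 9 rose and none fell in the deposited scaling, beside 22.0% higher over all probes, and the median was 0.78. After median centring 4 were higher and 3 lower, and after quantile normalization 5 and 1.

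Every one of the 5 genes of calcium sensors rose, beside 22.0% of all probes, though only 4 were called after median centring or quantile normalization. Their median change was 1.95, against 0.056 over all probes. Such proteins bind calcium through EF-hand domains, as calmodulin does. AT4G27280 had mock levels of 3.37, 3.71 and 3.80 and flg22 levels of 8.45, 8.33 and 8.03. The treated arrays were among the brighter values of the array and far above mock. This EF-hand gene rose by 4.64 (SE 0.19, limma adjusted p = 4.56e-15).

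CML42, a calmodulin-like gene known from leaf hairs and from defence against herbivores, went from 3.10, 3.58 and 3.80 to 5.73, 6.01 and 5.94. The groups were separate in all sets, and CML42 rose by 2.40 (SE 0.13). AT5G39670 had 2.92, 2.24 and 2.59 in mock and 5.18, 4.09 and 4.34 with flg22, a rise of 1.95 (SE 0.18). Its set 1 arrays were the highest in both groups. AT2G41410 started from a higher level, 5.65, 5.79 and 5.90, and reached 7.51, 6.87 and 7.13, a rise of 1.39 (SE 0.14) without overlap. AT2G41090, a calmodulin-like gene, had the smallest change of the 5, from 5.92, 5.95 and 5.76 to 6.78, 6.29 and 6.24. It rose by 0.56 (SE 0.15, limma adjusted p = 0.00683), and this was the call that both scalings removed (changes of 0.089 and 0.077). The call was also lost without set 1 (0.41, limma adjusted p = 0.233). AT2G26190 of a calmodulin-binding family, which was not on the sensor list, went from 2.62, 2.01 and 2.89 to 4.33, 3.98 and 4.33 and rose by 1.71 (SE 0.15).

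**Figure D2:**
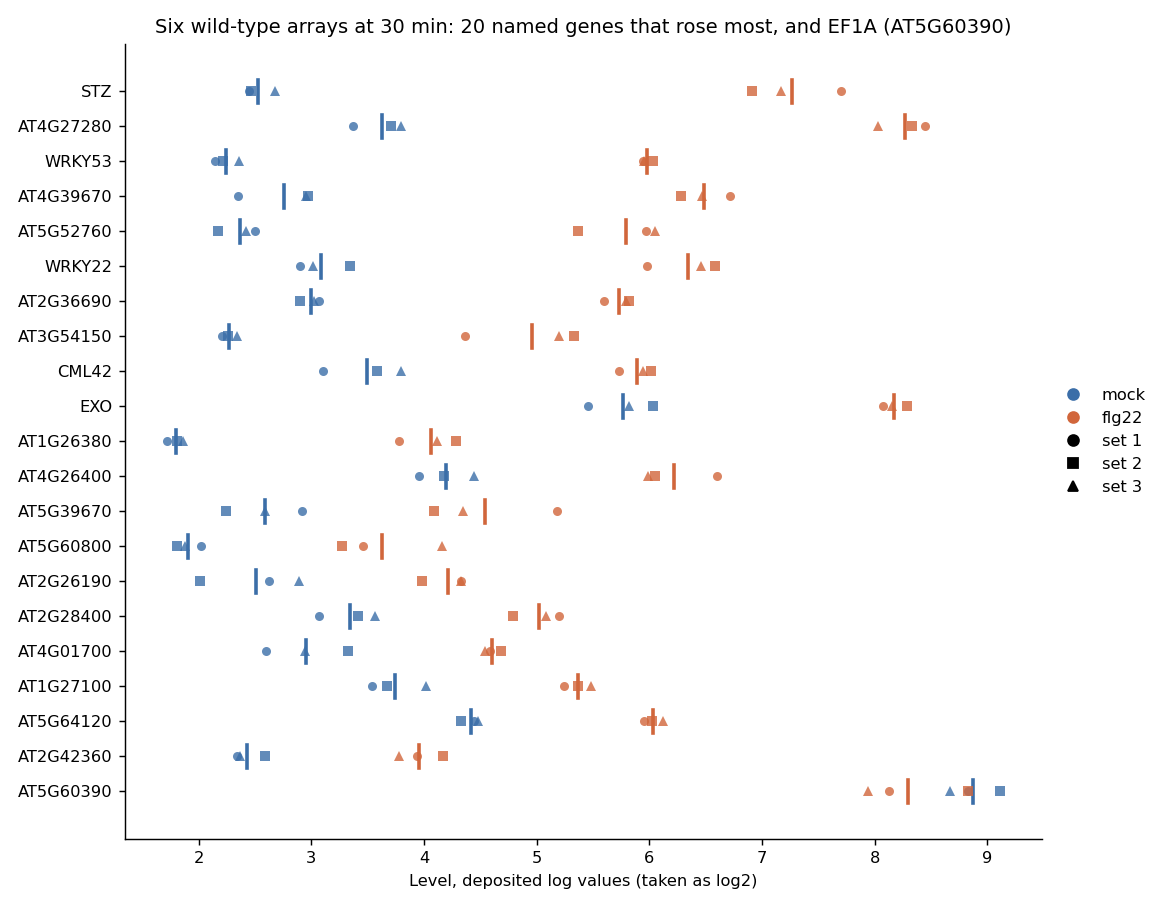
Each line shows 1 gene on the 6 arrays, with the level on the horizontal axis (deposited log values, taken as log2), blue for mock, orange for flg22, a symbol for each set and a bar at each group's mean. The 20 named genes that rose most have groups that do not overlap, which their choice by call and size favours. EF1A (AT5G60390), at the bottom, has groups that overlap.

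Named genes of other functions also rose, each by less than STZ and AT4G27280. AT4G39670, of the glycolipid transfer protein family, had 2.35, 2.97 and 2.95 in mock and 6.71, 6.28 and 6.46 with flg22. Set 1 held both the lowest mock and the highest treated value, and the gene rose by 3.73 (SE 0.19). AT3G54150, of a methyltransferase family, went from 2.20, 2.26 and 2.34 to 4.36, 5.33 and 5.19. The set 1 treated array was lower than the other treated arrays but still far above mock, and the rise was 2.69 (SE 0.16).

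The proteins of 3 further genes hold a heavy-metal-associated domain, which is also found in copper carriers. These genes were picked among those that rose, and how many such genes the array holds was not counted. AT5G52760 went from 2.50, 2.18 and 2.42 to 5.97, 5.36 and 6.05, a rise of 3.43 (SE 0.13). AT5G60800 went from 2.02, 1.81 and 1.88 to 3.46, 3.27 and 4.16, a rise of 1.72 (SE 0.19), with set 3 the highest. AT2G36950 went from 4.34, 4.32 and 4.20 to 5.18, 5.60 and 5.65, a rise of 1.19 (SE 0.13). None of the 3 had overlapping groups.

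EXO (EXORDIUM) is a cell wall protein gene known from brassinosteroid-promoted growth. Its mock levels of 5.46, 6.03 and 5.82 were already high, and flg22 levels were 8.07, 8.28 and 8.16. All treated arrays stood well above mock, and EXO rose by 2.40 (SE 0.16, limma adjusted p = 4.81e-11).

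Of 14 oxidoreductase genes 5 rose and none fell in the deposited scaling, beside 22.0% higher over all probes. After median centring 2 were higher and 6 lower, beside 92 and 328 of all 576 probes. After quantile normalization the counts were 3 and 4, beside 99 and 203. AT2G36690, of the 2-oxoglutarate-dependent oxygenase family, had 3.06, 2.90 and 3.02 in mock and 5.59, 5.81 and 5.79 with flg22. The arrays of each group were close to each other, and the gene rose by 2.74 (SE 0.14). AT1G26380, an FAD-linked enzyme of the berberine bridge type used as a flg22 marker, went from 1.72, 1.81 and 1.86 to 3.78, 4.28 and 4.11. It was among the dimmest named genes in mock and rose by 2.26 (SE 0.16) with no overlap.

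The 3 smaller rises of this class were those of AT1G64710 (alcohol dehydrogenase-like, 0.73), AT4G39830 (ascorbate oxidase-like, 0.67) and AT4G38540 (FAD-dependent, 0.54). All 3 calls were lost after median centring (limma adjusted p from 0.122 to 0.709). AT1G64710 and AT4G38540 were also lost after quantile normalization (limma adjusted p = 0.0901 and 0.687). AT4G38540 was lost as well without the replicate block (limma adjusted p = 0.133), without set 2 (0.0587) and without set 3 (0.162). The 9 that did not pass ranged from -0.32 (AT2G25450) to 0.51 (CTF2B), and included the sulfite reductase gene SIR (-0.19) and the succinate dehydrogenase gene SDH1-1 (0.06).

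Of 6 genes of antimicrobial proteins 3 rose and none fell in the deposited scaling, beside 22.0% higher over all probes, while 3 were higher and 1 lower after median centring, and 2 and 1 after quantile normalization. AT4G01700, a chitinase family gene whose product class cuts the chitin of fungal walls, went from 2.60, 3.32 and 2.95 to 4.59, 4.69 and 4.54. The treated arrays were close to each other and lay above all mock arrays, with a rise of 1.65 (SE 0.13). AT2G43620, also of the chitinase family, went from 3.17, 3.02 and 3.13 to 4.55, 4.75 and 4.46, a rise of 1.48 (SE 0.20). The proteinase inhibitor gene AT2G38870 went from 5.39, 4.88 and 5.22 to 5.91, 6.03 and 6.21, a rise of 0.89 (SE 0.17) that was lost after quantile normalization (0.34, limma adjusted p = 0.0811).

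PDF1.2, a defensin used as a marker of jasmonate and ethylene signalling, gave the widest spread of the class. Its levels were 4.64, 4.004 and 4.07 in mock and 5.56, 5.74 and 3.59 with flg22. The set 3 treated array was below every mock array while the other treated arrays were above them. The change of 0.72 (SE 0.34, 95% interval from 0.01 to 1.44) did not pass (limma adjusted p = 0.174). GRX480, a glutaredoxin gene of salicylic acid signalling, had 2.72, 2.55 and 2.75 in mock and 3.50, 3.12 and 3.55 with flg22. It rose by 0.72 (SE 0.11, limma adjusted p = 1.85e-05), with no overlap, and was lost after median centring (0.25, limma adjusted p = 0.085). The chitinase gene CHI (0.04) and the defensin-like gene AT3G59930 (0.24) did not pass.

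Of 3 class III peroxidase genes, which encode secreted enzymes acting on cell walls and hydrogen peroxide, 1 rose, beside 22.0% of all probes. After either median centring or quantile normalization 1 was higher and 1 lower. Over all 576 probes 92 were higher and 328 lower after the first, and 99 and 203 after the second. AT5G64120 went from 4.44, 4.33 and 4.48 to 5.96, 6.02 and 6.12, with tight groups and a rise of 1.61 (SE 0.18). AT2G37130 (-0.19) and AT5G19890 (0.12) did not pass.

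Of 4 protein kinase family genes 3 rose, beside 22.0% of all probes, while 1 was higher and 1 lower after median centring and 2 were higher after quantile normalization. AT1G11050 led with mock levels of 2.17, 2.69 and 2.95 and flg22 levels of 3.95, 3.86 and 3.80. The treated arrays were nearly equal and above all mock arrays, and the rise was 1.27 (SE 0.16). AT2G23450 (0.57) and AT3G09010 (0.50) also rose, but both calls were lost after median centring. AT2G23450 was also lost after quantile normalization (limma adjusted p = 0.353) and without the replicate block (limma adjusted p = 0.0931). Leaving out set 3 removed it too (limma adjusted p = 0.0888). AT3G09010 was lost without set 1 or without set 2 (limma adjusted p = 0.1 and 0.118). AT2G39110 (-0.06) did not pass.

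Of 5 genes related to ubiquitin ligases, the enzymes that mark proteins for turnover, 2 rose, beside 22.0% of all probes. After median centring 3 were lower, beside 328 of all 576 probes, and after quantile normalization 1, beside 203. AT4G26400 of the RING/U-box family went from 3.96, 4.18 and 4.45 to 6.60, 6.05 and 5.99, a rise of 2.02 (SE 0.16). AT2G42360, of a RING-type ligase family, went from 2.34, 2.59 and 2.37 to 3.93, 4.17 and 3.77, a rise of 1.53 (SE 0.13). Neither had overlapping groups. The other 3 lay between -0.09 and 0.06.

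None of 7 UDP-glycosyltransferase genes passed (median -0.15, from -0.23 to 0.11), beside 22.0% higher and 0.868% lower over all probes. After median centring 6 were lower, beside 328 of all 576 probes, and after quantile normalization 3, beside 203. They include UGT74B1 of glucosinolate synthesis (-0.16), IAGLU, which conjugates auxin (-0.23), and UGT76B1 (0.09). None of 6 chaperone genes passed (median -0.02, from -0.12 to 0.12). Under those scalings 3 and 4 were lower, beside the same 328 and 203 of all probes. BIP1 of the endoplasmic reticulum had 6.07, 5.71 and 5.71 in mock and 5.72, 5.75 and 5.81 with flg22, so its groups overlapped. HSP70 genes are near-identical, and which of them a probe reports is uncertain. Of 3 genes of tryptophan and sulphur metabolism 1 rose, beside 22.0% of all probes. This was the glucosinolate transporter gene GTR1, which rose by 0.93 (SE 0.19), from 2.54, 3.05 and 2.80 to 3.47, 3.92 and 3.78. The tryptophan pathway gene AT2G04400 (0.10) and the ATP sulfurylase gene APS3 (0.33) did not pass.

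Among 16 genes of general cell machinery, 15 did not pass and 1 fell (median 0.02), beside 0.868% lower over all probes. After median centring 13 were lower, beside 328 of all 576 probes, and after quantile normalization 10, beside 203. The gene that fell was AT5G60390, which encodes the translation elongation factor EF1A. It had 8.83, 9.11 and 8.67 in mock and 8.12, 8.83 and 7.94 with flg22. Each treated array was lower than the mock array of its set, but the groups overlapped because set 2 was high in both. The gene fell by 0.57 (SE 0.20, limma adjusted p = 0.0388). That call was lost without the replicate block (limma adjusted p = 0.0591) and with a trended and robust prior (limma adjusted p = 0.0656). It was also lost in 6 of the fits that left out arrays (limma adjusted p from 0.111 to 0.295). Centring on cell machinery genes removed it too (limma adjusted p = 0.0671), but AT5G60390 is 1 of those 16 genes, so its own fall enters that scaling. The beta-tubulin gene TUB6 (-0.45) and the histone H3 gene AT5G65360 (-0.34) did not pass, and histone H3 genes are also near-identical.

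**Figure D3:**
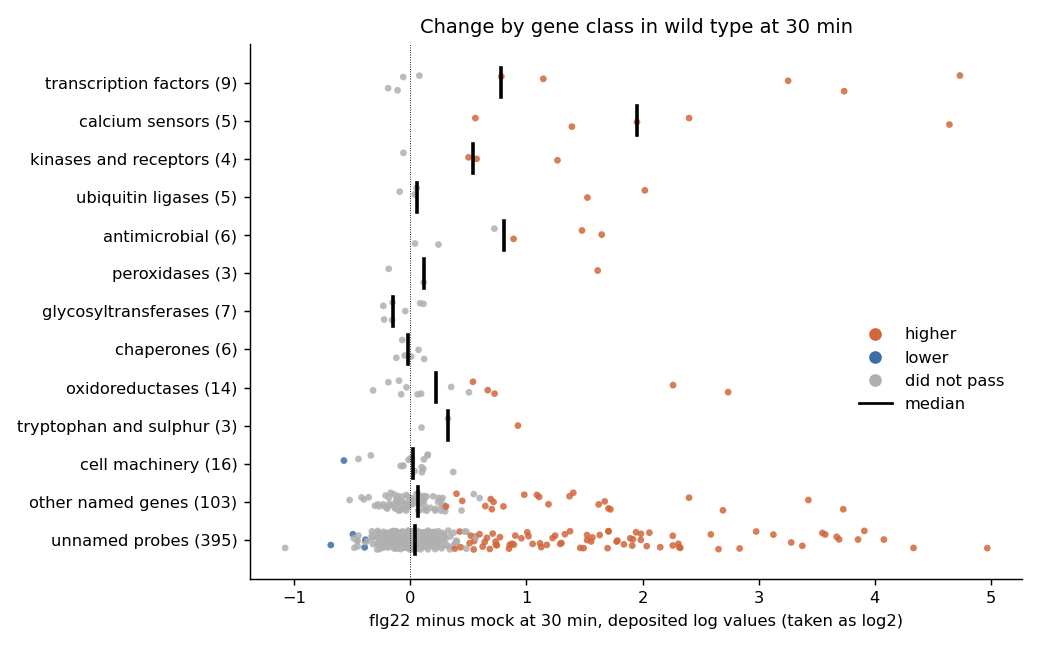
Each point is a probe, placed by its change on the horizontal axis (flg22 minus mock, deposited log values taken as log2) and by gene class on the vertical axis, with the number of probes in brackets, colours for the call and a bar at each median. The calcium sensors lie furthest right with a median of 1.95, while all 7 glycosyltransferases and all 6 chaperones lie close to 0.

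Outside these classes 103 named genes were measured, of which 22 rose, a share near the 22.0% over all probes. None fell in the deposited scaling and 81 did not pass (from -0.52 to 0.60). After median centring 15 were higher and 61 lower, and after quantile normalization 18 and 39. Besides those above, AT2G28400 rose by 1.67, AT1G27100 by 1.62, AT2G18210 by 1.40, AT1G05340 by 1.11 and CDI by 1.09. The pectin methylesterase gene ATPMEPCRB rose by 0.70, from 2.30, 2.56 and 2.43 to 2.88, 3.42 and 3.09, and was lost after median centring (0.23, limma adjusted p = 0.146). AT1G03220, of the aspartyl protease family, had 4.65, 6.03 and 5.82 in mock and 6.01, 7.50 and 7.11 with flg22. Its set 1 arrays were low in both groups, so the groups overlapped while each set differed by 1.29 to 1.47, and it rose by 1.37 (SE 0.33, limma adjusted p = 0.0024). AT2G18690 behaved likewise, with set 2 low in both groups (1.50 and 2.39), and its rise of 0.98 was lost without the replicate block (limma adjusted p = 0.135).

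The smallest rises were those of AT4G25030 (0.45), AT4G33540 (0.40) and AT2G14290 (0.31), which turned to -0.02, -0.07 and -0.16 after median centring. Those of AT4G25030 and AT4G33540 were also lost with cell machinery centring (limma adjusted p = 0.0549 and 0.056), and all 3 after quantile normalization and without the replicate block. AT2G32150 rose by 0.65 but had 0.17 after median centring (limma adjusted p = 0.358) and -0.04 after quantile normalization. Its call was also lost without set 1 or without set 2 (limma adjusted p = 0.101 and 0.0853). Those of AT4G25030, AT4G33540 and AT2G14290 were lost whichever of the 3 sets was left out (limma adjusted p from 0.0501 to 0.378). Of the 47 named genes that rose, 43 had groups that did not overlap, which being called favours. The groups of AT1G03220, AT2G18690, AT4G38540 and AT4G25030 overlapped.

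The unnamed probes are 395 of the 576, and 80 of them were higher (20.3%, against 26.0% of named probes) and 4 lower. They held 6 of the 10 largest rises. Probe 125 had 1.83, 0.75 and 1.66 in mock and 6.68, 6.05 and 6.41 with flg22, the largest rise of all at 4.97 (SE 0.20). Probe 539 went from 2.95, 2.61 and 2.95 to 7.58, 6.84 and 7.09, a rise of 4.33 (SE 0.14). Both were far above mock on every treated array.

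The unnamed probes that fell moved little. Probe 572 fell by 0.68 (SE 0.24), from 10.5, 9.02 and 9.73 to 9.35, 8.89 and 8.98, with overlapping groups, and without the set 1 mock array the change was -0.34 (limma adjusted p = 0.423). Probe 179 fell by 0.49 (SE 0.17), from 4.35, 5.22 and 5.39 to 4.51, 4.61 and 4.37, and its set 1 difference ran the other way (0.16). Without the set 3 mock array its change was -0.25 (limma adjusted p = 0.377). Probe 437 fell by 0.39 (SE 0.12), from 3.14, 3.29 and 3.22 to 2.77, 3.06 and 2.64, without overlap. All 3 calls were lost without the replicate block (limma adjusted p = 0.129, 0.0612 and 0.0586). The remaining fall was that of probe 279 (-0.38), which was lost with only the compared arrays in the fit (limma adjusted p = 0.097). The lowest change of the array, -1.08 at probe 526, did not pass (limma adjusted p = 0.195), since its mock levels of 8.84, 4.87 and 5.06 rest on the set 1 array.

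The 3 sets gave similar responses. The difference reached at least 1 for 85, 88 and 89 probes in sets 1, 2 and 3, and -1 or less for 4, 0 and 1. Over the 127 higher probes the median difference was 1.36, 1.42 and 1.42, but these probes were called from the same differences, which favours agreement. Across all 576 probes, which share arrays and are not independent, the set differences correlated with Pearson's r of 0.900 (sets 1 and 2), 0.864 (1 and 3) and 0.947 (2 and 3), and with Spearman's rho of 0.577, 0.475 and 0.739. Set 1 was the least like the others: its differences had an SD of 0.385 among probes that did not pass, against 0.231 and 0.281. Its mock array lay at least 1 from both other mock arrays at 10 probes, against 3 for set 2 and 2 for set 3.

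The response at 30 min was set against that of wild type at 3 h, which used other arrays for both groups. At 3 h, 211 probes were higher (36.6%) and 46 lower (7.99%). The difference between the responses was tested in the same limma model, with 104 probes larger at 3 h (18.1%) and 80 smaller (13.9%). The balance turned to 91 larger and 106 smaller after quantile normalization, and was 94 and 90 after median centring and 128 and 65 with cell machinery centring. Of the 127 probes higher at 30 min, 55 had a smaller response at 3 h, 29 a larger one, and 43 did not pass. Among the 444 not called at 30 min, 25 had a smaller response and 74 a larger one. The 127 were chosen for their 30 min change, which this test subtracts, so the choice itself favours smaller responses at 3 h. At 3 h 101 of the 127 were again higher and 2 were lower, CDI (-0.57) and the unnamed probe 329.

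Several of the strongest early genes had a smaller response at 3 h, a direction that choosing them by their 30 min change also favours. AT4G27280 had 1.08 at 3 h against 4.64 at 30 min, a difference of -3.57 (SE 0.26, limma adjusted p = 6.53e-10). STZ had 2.19 against 4.73, WRKY53 2.21 against 3.74 and WRKY22 2.26 against 3.25, and each difference passed. EXO had 0.05 against 2.40, and at 3 h its difference from mock did not pass (limma adjusted p = 0.862). Of the 47 named genes that rose at 30 min, 10 were not called at 3 h (21.3%), beside 24 of all 127 (18.9%), among them GRX480 (-0.02), GTR1 (-0.22), the RING/U-box gene AT4G26400 (0.10) and AT5G60800 (-0.22).

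Of the 6 genes of antimicrobial proteins 3 had a larger response at 3 h, beside 18.1% of all probes, and 3 did not pass. Among those that did not pass was PDF1.2 (0.08 at 3 h against 0.72). AT2G38870 had 4.80 at 3 h against 0.89, AT2G43620 had 5.35 against 1.48 and AT4G01700 had 4.45 against 1.65. The peroxidase gene AT5G64120 had 4.28 against 1.61, AT1G26380 had 4.30 against 2.26 and WRKY29 had 2.49 against 0.78, opposite in direction to WRKY22 and WRKY53. Apart from PDF1.2, each difference named here passed. Of the named genes that were not called at 30 min 27 of 133 were higher at 3 h, beside 109 of 444 (24.5%) over all probes not called at 30 min. Among them were AT2G04400 (2.88 against 0.10), BIP1 (1.85 against -0.07), the HSP70 gene AT3G09440 (1.48 against -0.12), UGT74B1 (1.50 against -0.16) and IAGLU (1.11 against -0.23). For CML42 the difference between the times did not pass (1.96 against 2.40, limma adjusted p = 0.0837), nor for AT3G54150 (2.40 against 2.69, limma adjusted p = 0.379).

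**Figure D4:**
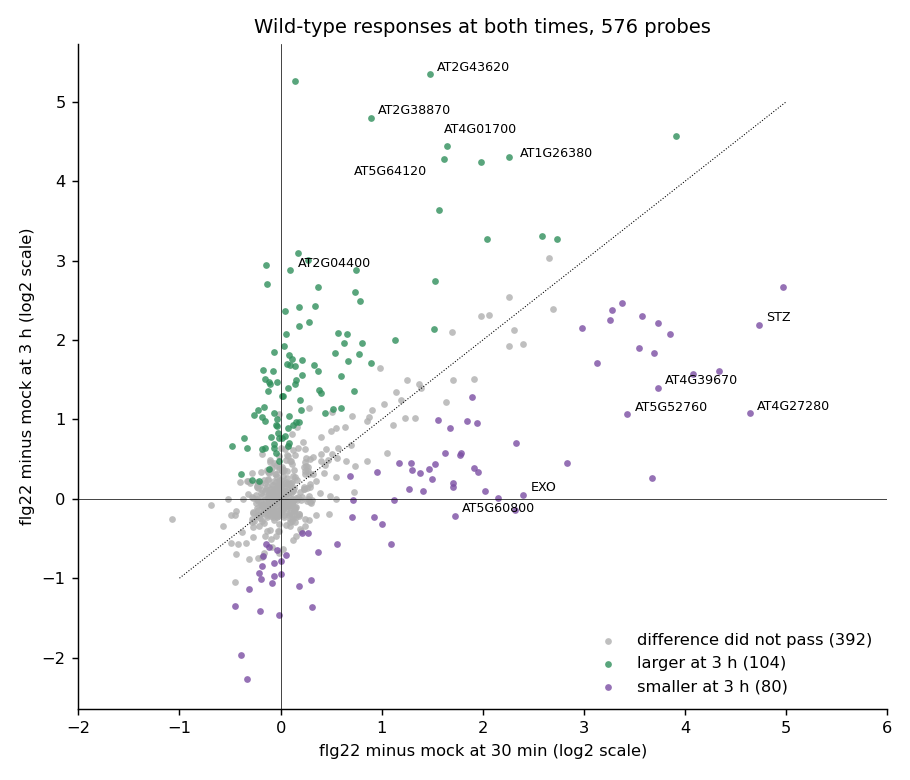
Each of the 576 points is a probe, with its change at 30 min on the horizontal axis and at 3 h on the vertical axis (flg22 minus mock, deposited log values taken as log2), coloured by the test of the difference, with a dotted line where both are equal. AT4G27280 and STZ lie far to the right and low (4.64 and 1.08, 4.73 and 2.19), while AT2G43620 and AT2G38870 lie high and to the left.

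The mpk11 line has a T-DNA insertion in MPK11, a MAP kinase gene that was not among the named probes, so its transcript was not analysed here. At 30 min in mpk11, 135 probes were higher (23.4%) and 14 lower (2.43%). The mutant was called higher at 120 of the 127 probes that rose in wild type, and at all 84 that rose by at least 1. The test of the difference between the genotypes called 0 probes in limma (0%), while 22 had an unadjusted p below 0.05. The 95% interval of this difference reached a median of 0.460 to either side, before adjustment over the 576 probes. At a typical probe a call needed a larger difference than that. Differences in response above 0.460 may therefore also have been missed, and smaller ones were mostly not detectable.

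Among named genes the smallest p belonged to AT5G52760, whose response was 4.05 in mpk11 and 3.43 in wild type, a difference of 0.62 (95% interval from 0.23 to 1.01, limma adjusted p = 0.988). AT4G39670 had 2.96 against 3.73 (difference -0.77, from -1.34 to -0.20), AT2G38870 1.52 against 0.89, AT1G64710 1.18 against 0.73 and AT2G28400 1.11 against 1.67, all with the same adjusted p. STZ had 4.87 and 4.73, with an interval of the difference from -0.31 to 0.59, and WRKY53 3.51 and 3.74, with an interval from -0.65 to 0.19. AT4G33540 (0.12) and AT4G38540 (0.41) rose in wild type and were not called in mpk11, but their differences between the genotypes did not pass.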

How the data were processed

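Transcripts were measured with a single dye (Alexa555) on a spotted array, and a Cy5-labelled oligonucleotide served to find and remove spots of poor quality, per the labels. The values deposited by the authors are on a log scale taken as log2. The log base, scanner, background correction and normalization were not stated in the sources used here. There were 0 missing values and 0 identical pairs of arrays.

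Groups and set numbers came from the labels. Each comparison used limma 3.58.1 (R 4.3.3) with 8 group means and the set number as a fixed block over all 24 arrays (residual degrees of freedom 14, prior 6.45), with Benjamini-Hochberg adjustment over 576 unfiltered probes at 0.05. The spread of the other groups thus enters each standard error. The code was tested on simulated data, and tables were made in Python 3.11.15 with pandas 2.3.3. Set numbers pair the samples: deviations of same-numbered flg22 and mock arrays from their group means correlated at 0.484, 0.714 and 0.417. Alternatives were no block, a random block, only the arrays compared, median, quantile and cell machinery scaling, no dim probes, another variance prior, and leaving out each array or set.

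A gene was listed for 181 probes (several genes for 0), which leaves 395 unnamed here, and RefSeq names were found by identifier for 180. The RefSeq table gave no descriptions, so classes and roles were assigned from general knowledge of each gene. Named were the 20 genes that rose most and up to 8 that fell most with one sign in all sets, members of the lists, the 6 largest differences each way between times, the 5 smallest p between genotypes and the 2 unnamed probes at each end. Those that rose or fell most, and the differences between times, were taken only among probes past the threshold. The other genes named were chosen after their values were seen. The comparison and lists were chosen with earlier results of these data known. Of 26 genes on a flagellin pathway list 5 were measured (STZ, WRKY22, WRKY29, WRKY53 and AT1G26380), and all 5 rose, beside 22.0% of all probes, with 4 of the 5 called after median centring.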

Additional observations from a re-analysis of the deposited data

Results flagged for a closer look

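The difference of the wild-type response between the times (3 h less 30 min) passed limma for 104 probes in 1 direction and 80 in the other, and the named genes with the largest differences are given here with their values. The response was smaller at 3 h by these amounts: AT4G27280 gave -3.57 (SE 0.26), STZ -2.54 (SE 0.22), AT5G52760 -2.37 (SE 0.19), EXO -2.35 (SE 0.23), AT4G39670 -2.33 (SE 0.27) and AT5G60800 -1.94 (SE 0.26). It was larger at 3 h for the proteinase inhibitor gene AT2G38870 by 3.91 (SE 0.25), for the chitinase family genes AT2G43620 by 3.87 (SE 0.28) and AT4G01700 by 2.80 (SE 0.19), for AT2G04400 of the tryptophan pathway by 2.78 (SE 0.19), for the peroxidase gene AT5G64120 by 2.67 (SE 0.25) and for AT1G26380 by 2.04 (SE 0.22). Only differences that passed limma with an adjusted p below 0.05 over all 576 probes could be chosen, so that all 12 passed is not a further result.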

How the results depend on the processing

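The number of higher probes, 127 as reported, was 117 without the replicate block, 92 with median centring and 99 with quantile normalization. The 84 that rose by at least 1 kept their call in every alternative where they were tested (7 were not tested when the dimmest probes were left out). Their choice by size favours this. The number of lower probes, 5 as reported, was 1 without the replicate block, 12 with only the arrays compared, 328 after median centring, 203 after quantile normalization, 2 with cell machinery centring and 3 with a trended and robust prior, and from 0 to 9 when arrays or sets were left out. The median change of 0.056 turned to -0.42 after median centring and -0.27 after quantile normalization. Signs turned for AT2G32150 (quantile, -0.038), AT4G25030 (median, -0.024), AT4G33540 (median, -0.074, and quantile, -0.26), AT2G14290 (median, -0.16), AT2G04400 (median, -0.38), UGT76B1 (median, -0.39), CHI (median, -0.43, and quantile, -0.38) and SDH1-1 (median, -0.41, and quantile, -0.53). The cause was not tested. Over the 82 genes and probes tried, 1172 values kept their side of the threshold, 112 lost a call, 46 gained one and 42 changed sign with no call in either fit. With 3 arrays a group the 95% interval reached a median of 0.325 to either side of a change, which limits small changes.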
